A study of Mus musculus with 121 samples.

Results

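The tau transgenic comparison at 6 months set 6 rTg4510 transgenic (TG) mice against 7 wild-type (WT) mice of the same line, 13 of the 121 samples of the series. They were chosen by label alone, as every sample whose title gives the rTg4510 line, a genotype and an age of 6 months. The series measured messenger RNA in the entorhinal cortex, a cortical area where tau pathology appears early in Alzheimer's disease, in a tau line and in an amyloid line, each at 4 ages. All mice used here were female. TG mice carried both a CaMKIIα-tTA effector transgene and a human tau transgene with the P301L mutation. The first drives expression mainly in forebrain excitatory neurons and the second responds to it. WT mice were littermates that carried neither, so a control with the driver alone was not part of the comparison. The background was mixed, 129S6/SvEvTac with FVB/NCrl. In the text a mouse is named by its genotype and the letter in its sample label, for example TG P.

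Tau is a microtubule-binding protein of axons that forms filaments in tauopathies, and the P301L form aggregates readily. Neurons that carry tau aggregates lose synapses, and the glia around them respond. Microglia, the resident macrophages of brain tissue, sense lipids, proteins and antibodies through receptors such as TREM2 and the Fc receptors, and digest what they engulf in lysosomes. Astrocytes become reactive and raise intermediate filaments such as GFAP. Immediate early genes are switched on within minutes of neuronal firing and are read as a sign of recent activity.

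Total counts ran from 7565226 to 13771578 in the TG mice and from 10725432 to 12847494 in the WT mice (exact permutation test, two-sided, p = 0.372). RNA integrity numbers were 8.4 to 9.1 (median 8.7) in TG and 8.7 to 9.0 (median 8.9) in WT mice. Markers of cortical tissue were abundant in all 13 mice, including Slc17a7 of excitatory neurons (12730.0 to 20444 normalized counts in TG and 14657 to 18607 in WT mice). Gad1 of inhibitory neurons was also present in every mouse (4621 to 5327 in TG and 4934 to 6071 in WT mice). TG P stood apart from its group, with a mean correlation of 0.951 with the other TG mice where these others had 0.977 to 0.982. WT Q had a low summed level of meningeal genes and WT T of myelin genes, as described with those lists. A normalized count is a count divided by a size factor of its library, and it does not correct for gene length.

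Of 18943 genes tested, 1884 (9.95%) were called at an FDR (adjusted p) under 0.05, and 1235 of them (6.52%) were higher and 649 (3.43%) lower in TG mice. The higher genes moved further: 411 of them and 53 of the lower genes changed by at least 1 on the log2 scale. The median log2 fold change was 0.68 among the higher genes, -0.34 among the lower genes and 0.00 over all genes. Every TG mouse was above every WT mouse at 638 genes (3.37%), and below every WT mouse at 242 genes (1.28%). Without TG P, WT Q and WT T together, a setting chosen after seeing the data, 947 genes were called, 899 of them among the 1884, and without TG P alone 1347. In bulk tissue, a change in the number of cells of a type cannot be told apart from a change in RNA per cell. This holds for each list described here, whether it rose or fell.

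**Figure D1:**
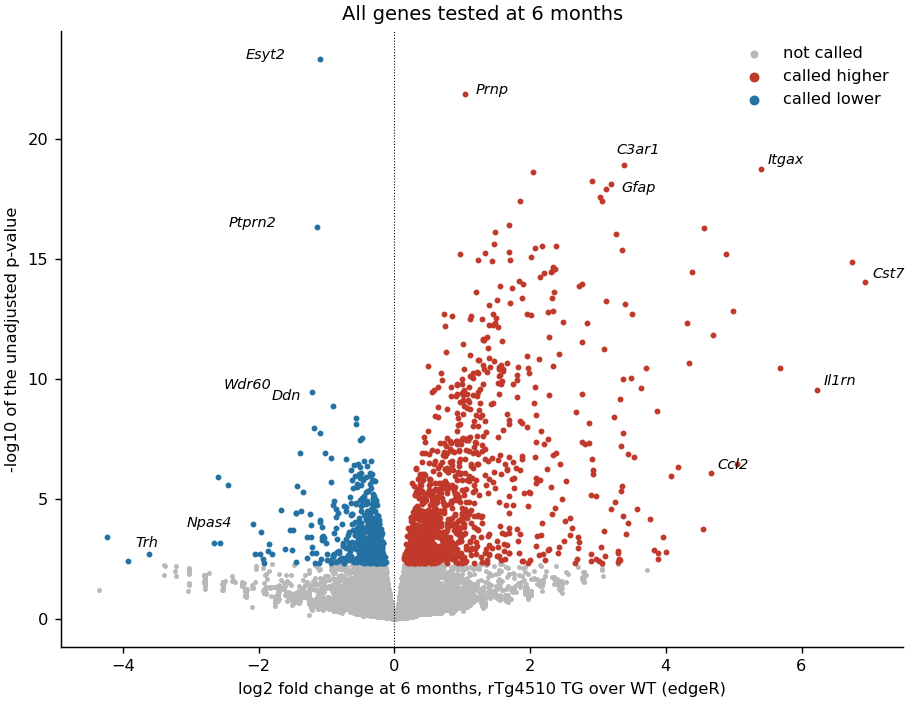
Each point is 1 of the 18943 genes, with the log2 fold change of TG over WT mice at 6 months on the x axis and the negative log10 of the unadjusted edgeR p-value on the y axis. The 1235 genes called higher reach larger fold changes than the 649 called lower. Prnp and the genes at the transgene insertion sites (Esyt2, Ptprn2, Wdr60) lie among the smallest p-values.

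Genes tied to the transgenes were checked first. Mapt, the mouse tau gene, had 6810.3 to 8133 normalized counts (median 7902) in the TG mice and 6572 to 7139 (median 6773) in the WT mice (log2 fold change = 0.17 ± 0.05 SE, FDR = 0.026). The groups overlapped, and the call was lost without TG M, TG Q or TG T (FDR = 0.063 to 0.068). Fragments of the human transgene can be counted with mouse Mapt, so its value is uncertain. The authors found sequence specific to human MAPT in TG mice alone. Prnp, whose exons frame the tau transgene, gave a clear separation, with 24126 to 27639 (median 25772) in TG and 11398 to 13259.6 (median 12854) in WT mice (log2 fold change = 1.04 ± 0.07 SE, FDR = 1.3e-18). Genes at the known insertion sites were lower, which the authors hold likely reflects known deletions there. Whether it does was not tested here. Esyt2, at the CaMKIIα-tTA insertion on chromosome 12, had 324 to 388 counts (median 342) in TG and 659 to 842 (median 761) in WT mice (log2 fold change = -1.097 ± 0.07 SE, FDR = 9.2e-20). Ptprn2, in the same region, had 3594 to 4314 (median 3975) in TG and 7324 to 9629 (median 8953) in WT mice (log2 fold change = -1.14 ± 0.10 SE, FDR = 6.9e-14). Fgf14, at the tau transgene insertion on chromosome 14, had 205 to 259 (median 238) in TG and 294 to 388 (median 345) in WT mice (log2 fold change = -0.56 ± 0.12 SE, FDR = 5.5e-04). The groups did not overlap at Prnp, Esyt2, Ptprn2 and Fgf14. Vipr2, also near the chromosome 12 insertion, was not called (log2 fold change = 0.12 ± 0.20 SE, FDR = 0.77).

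Genes of disease-associated microglia, the state described around plaques and tangles, rose almost as a whole. Of 26 members, 24 were called higher, none lower, and the median log2 fold change was 1.40, where 6.52% of all genes were called higher and the median of all genes was 0.00. Fth1 (0.30) and Ank (0.04) were the members not called. Itgax, an integrin that marks this state, had 183 to 461 normalized counts (median 313) in the TG mice and 4.06 to 12.8 (median 5.97) in the WT mice (log2 fold change = 5.41 ± 0.39 SE, FDR = 8.6e-16). Cst7, a lysosomal cysteine protease inhibitor, had 67.98 to 167 (median 124) in TG mice, and 4 of the 7 WT mice had no count (log2 fold change = 6.94 ± 0.66 SE, FDR = 4.7e-12). Clec7a, a receptor for fungal glucans, had 62.1 to 115 (median 87.3) in TG and 1.13 to 6.96 (median 2.03) in WT mice (log2 fold change = 4.88 ± 0.44 SE, FDR = 4.9e-13). No TG mouse overlapped a WT mouse at these genes. The receptor gene Trem2 had 504 to 1108 counts (median 663) in TG and 94.3 to 196 (median 156) in WT mice (log2 fold change = 2.27 ± 0.23 SE, FDR = 5.8e-11). Tyrobp, its signaling adaptor, had 723 to 1493 (median 958) in TG and 161 to 241 (median 189) in WT mice (log2 fold change = 2.39 ± 0.21 SE, FDR = 3.0e-13), again without overlap. Apoe, a lipid carrier of astrocytes and microglia, had 28682 to 53578 (median 39389) in TG and 16241 to 29488 (median 24030.3) in WT mice (log2 fold change = 0.74 ± 0.16 SE, FDR = 6.4e-04), with overlap at the edge of the groups.

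Homeostatic microglial genes, which mark resting microglia and are known to fall in the disease-associated state, were not lower. Among 15 members, 11 were called higher and none lower (median log2 fold change 0.85), where 6.52% of all genes were called higher. The growth factor receptor gene Csf1r, needed for microglial survival, had 3108 to 5240.1 counts (median 3617) in the TG mice and 1521 to 2089.6 (median 1741) in the WT mice (log2 fold change = 1.16 ± 0.15 SE, FDR = 1.5e-08). Cx3cr1, the receptor for neuronal fractalkine, had 1666 to 2739.8 (median 1903) in TG and 869 to 1233 (median 1070.1) in WT mice (log2 fold change = 0.92 ± 0.13 SE, FDR = 2.9e-07). Tmem119, a surface protein of resident microglia, had 498 to 983 (median 575) in TG and 340.0 to 493 (median 396) in WT mice (log2 fold change = 0.67 ± 0.15 SE, FDR = 0.001). TG and WT mice were fully separated at Csf1r, Cx3cr1 and Tmem119. P2ry12, a receptor for ADP that guides microglial processes, had 477 to 638 (median 514) in TG and 378 to 498 (median 463) in WT mice and did not pass the test (log2 fold change = 0.28 ± 0.13 SE, FDR = 0.19). In a fit of the 13 mice alone P2ry12 was called higher (log2 fold change = 0.28, FDR = 0.042). The members not called were P2ry12, Selplg (0.39), Mef2a (0.06) and Slc2a5 (-0.36). The call of Tmem119 was lost without TG P, WT Q and WT T together, and no single mouse decided it. The list gave values of 0.46 to 1.02 in TG mice and -0.17 to 0.18 in WT mice, as mean log2 CPM (counts scaled to library size) relative to the WT mean.

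Receptors and kinases that carry signals through Fc receptors and ITAM motifs were called higher at 19 of 20 members (median 1.42). Dapp1 (0.39) was the exception, and 6.52% of all genes were called higher. Fcgr4, an activating Fc receptor, had 2.96 to 17.3 counts (median 15.8) in TG and 0 to 2.21 (median 1.01) in WT mice (log2 fold change = 3.53 ± 0.60 SE, FDR = 1.3e-05). The Src-family kinase gene Fgr had 19.9 to 41.4 (median 31.7) in TG and 0.98 to 6.64 (median 1.97) in WT mice (log2 fold change = 3.48 ± 0.44 SE, FDR = 1.4e-08). Cd84, a signaling receptor of the SLAM family, had 114 to 213 (median 175) in TG and 15.7 to 28.2 (median 19.9) in WT mice (log2 fold change = 3.02 ± 0.24 SE, FDR = 5.8e-15). None of these genes showed an overlap between the groups. Blnk, an adaptor downstream of Syk, had 238 to 264 (median 243) in TG and 72.6 to 100.2 (median 92.4) in WT mice (log2 fold change = 1.48 ± 0.13 SE, FDR = 9.3e-14), and its TG mice lay close together. Sfpi1, which encodes the macrophage transcription factor PU.1, was called higher as well (log2 fold change = 1.33 ± 0.20 SE, FDR = 5.7e-07). The counts of Fcgr4 were low in both groups, so the size of its change is uncertain.

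Promoters of the called genes were read for the PU.1 motif GAGGAAGT in the RefSeq annotation of GRCm38.p6, in windows from 250 bases before to 50 bases after each gene start, on both strands. It was present in 1052 of all 32851 windows (3.20%). Only 14524 of the 18943 tested genes could be matched to a window, which is below 80%, so a comparison of motif shares between higher and lower genes is void. The windows shown are those of a lysosomal protease, an Fc receptor and a complement subunit that are among the genes described here, with the motif in capitals, each read in the direction of the gene and each holding the motif on the opposite strand. They lie at chr3:95526776-95526799 (Ctss, plus strand), chr1:171018894-171018917 (Fcgr4, plus strand) and chr4:136893094-136893117 (C1qc, minus strand). Most members of these lists held no match. The motif was in 3 of 26 lysosomal, 3 of 18 Fc receptor and ITAM, and 1 of 13 complement members with a window. It was in 1 of 22 disease-associated and 0 of 10 homeostatic microglial members. A match is a description of the letters and was not tested as a binding site.
Ctss: gaaagttcACTTCCTCattgtgga
Fcgr4: ggctatttACTTCCTCtcttctag
C1qc: cggcagacACTTCCTCattttggc

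Pattern recognition receptors were called higher at 12 of 20 members and lower at none (median 0.90), where 6.52% of all genes were called higher. Tlr2, a receptor for bacterial lipoproteins, had 86.5 to 268 counts (median 103) in TG and 12.8 to 29.5 (median 15.1) in WT mice (log2 fold change = 2.76 ± 0.31 SE, FDR = 7.0e-10). Its partner Cd14 had 128 to 350.4 (median 157) in TG and 22.9 to 49.8 (median 34.9) in WT mice (log2 fold change = 2.48 ± 0.26 SE, FDR = 1.2e-10). The groups did not overlap at either gene, and TG P was the highest mouse at both. Tlr4 (0.62), Tlr6 (0.51) and Tlr3 (0.31) did not pass the test.

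Complement genes were called higher at 10 of 19 members and lower at none (median 0.77), where 6.52% of all genes were called higher. Called members included the C1q chains, C3, C4b and the receptors C3ar1, C5ar1, Itgam and Itgb2. C1qa, a chain of the molecule that starts the classical pathway, had 1645 to 4521 counts (median 2343) in TG and 426 to 669 (median 496) in WT mice (log2 fold change = 2.35 ± 0.23 SE, FDR = 9.9e-12). C1qc, whose promoter window was shown with the PU.1 motif, had 1103 to 3082 (median 1721) in TG and 297 to 486 (median 366) in WT mice (log2 fold change = 2.32 ± 0.23 SE, FDR = 1.7e-11). C4b, the next component, had 2424 to 5843 (median 3122) in TG and 249 to 454 (median 363) in WT mice (log2 fold change = 3.27 ± 0.27 SE, FDR = 1.1e-13). All 3 genes were without overlap. C4b has a near-identical neighbor, so reads may be split between the copies. C3, on which the complement pathways converge, had 33.5 to 115 (median 51.1) in TG and 2.21 to 8.51 (median 3.93) in WT mice (log2 fold change = 3.63 ± 0.47 SE, FDR = 3.1e-08). C3ar1, the receptor for its fragment C3a, had 124 to 238 (median 142) in TG and 8.51 to 34.3 (median 10.8) in WT mice (log2 fold change = 3.38 ± 0.25 SE, FDR = 7.7e-16). Factor B (Cfb, -0.15) and properdin (Cfp, -0.15), both of the alternative pathway, were not called, nor was the inhibitor Cd59a (0.13).

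**Figure D2:**
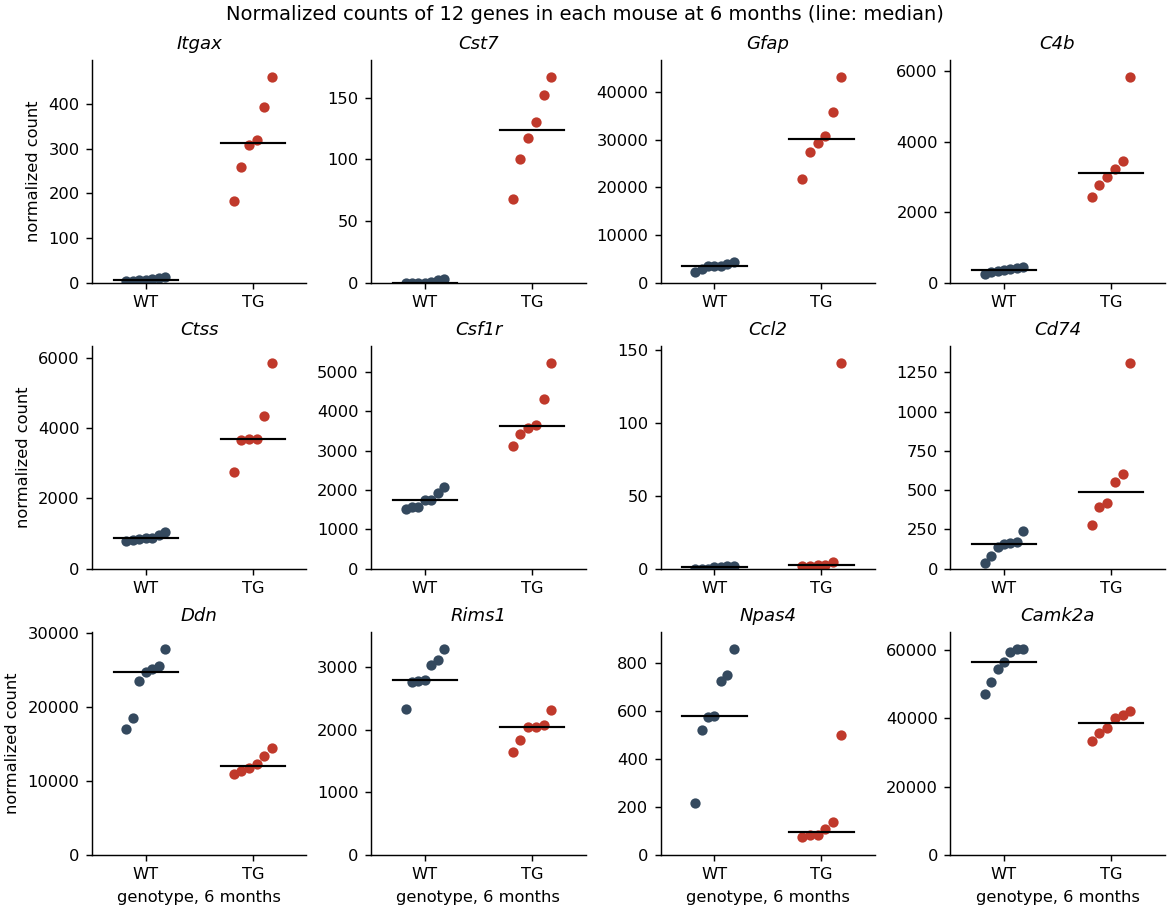
Normalized counts of 12 genes in each of the 7 WT and 6 TG mice at 6 months, with a linear y axis from 0 and a line at the group median. Itgax, Cst7, Gfap, C4b, Ctss and Csf1r separate the groups fully, Ccl2 is high in TG P alone at 142, and at Npas4 TG M lies at 497 among the WT mice.

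Cytokine and chemokine genes had the largest median of all lists, 2.07, and 1 mouse lay above the rest. Of 24 members 17 were called higher and none lower, where 6.52% of all genes were called higher. Ccl3, a chemokine of activated microglia, had 43.0 to 94.0 counts (median 52.2) in TG and 0 to 13.3 (median 0.95) in WT mice (log2 fold change = 4.31 ± 0.46 SE, FDR = 1.3e-10). Il1rn, the natural antagonist of the interleukin 1 receptor, had 2.96 to 16.7 (median 8.47) in TG mice and no count in any of the 7 WT mice. Its TG mean of 9.04 was at least 20.7-fold higher than a floor of 3 counts over the WT group (edgeR FDR = 3.8e-08). Il1b, an inflammatory cytokine, had 11.5 to 65.7 (median 15.7) in TG and 1.97 to 9.02 (median 4.06) in WT mice (log2 fold change = 2.34 ± 0.39 SE, FDR = 1.0e-05). The groups did not overlap at Ccl3, Il1rn and Il1b. The interferon-induced chemokine gene Cxcl10 had 6.28 to 131 (median 10.5) in TG and 0 to 3.38 (median 1.01) in WT mice (log2 fold change = 4.08 ± 0.75 SE, FDR = 6.1e-05). The Cxcl10 call was lost without TG P, WT Q and WT T together (log2 fold change = 2.30, FDR = 0.074). Ccl2, a chemokine that attracts monocytes, had 142 in TG P and 1.97 to 4.78 in the other TG mice, with 0 to 2.03 (median 0.99) in WT mice. Its log2 fold change was 4.66 ± 0.84 SE (FDR = 4.8e-05), the groups overlapped, and without TG P it was 1.53 (FDR = 0.26). TG P was also the highest mouse at Cxcl10, Il1b and Ccl3. The list gave 2.27 in TG P, 1.10 to 1.40 in the other TG mice and -0.25 to 0.28 in WT mice on the mean log2 CPM scale. In TG P the meningeal and blood list was low (-0.59), against -0.14 to 0.79 in the other TG mice. What these values have to do with each other was not tested. Without TG P, 12 members were called higher, and 11 without TG P, WT Q and WT T.

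**Figure D3:**
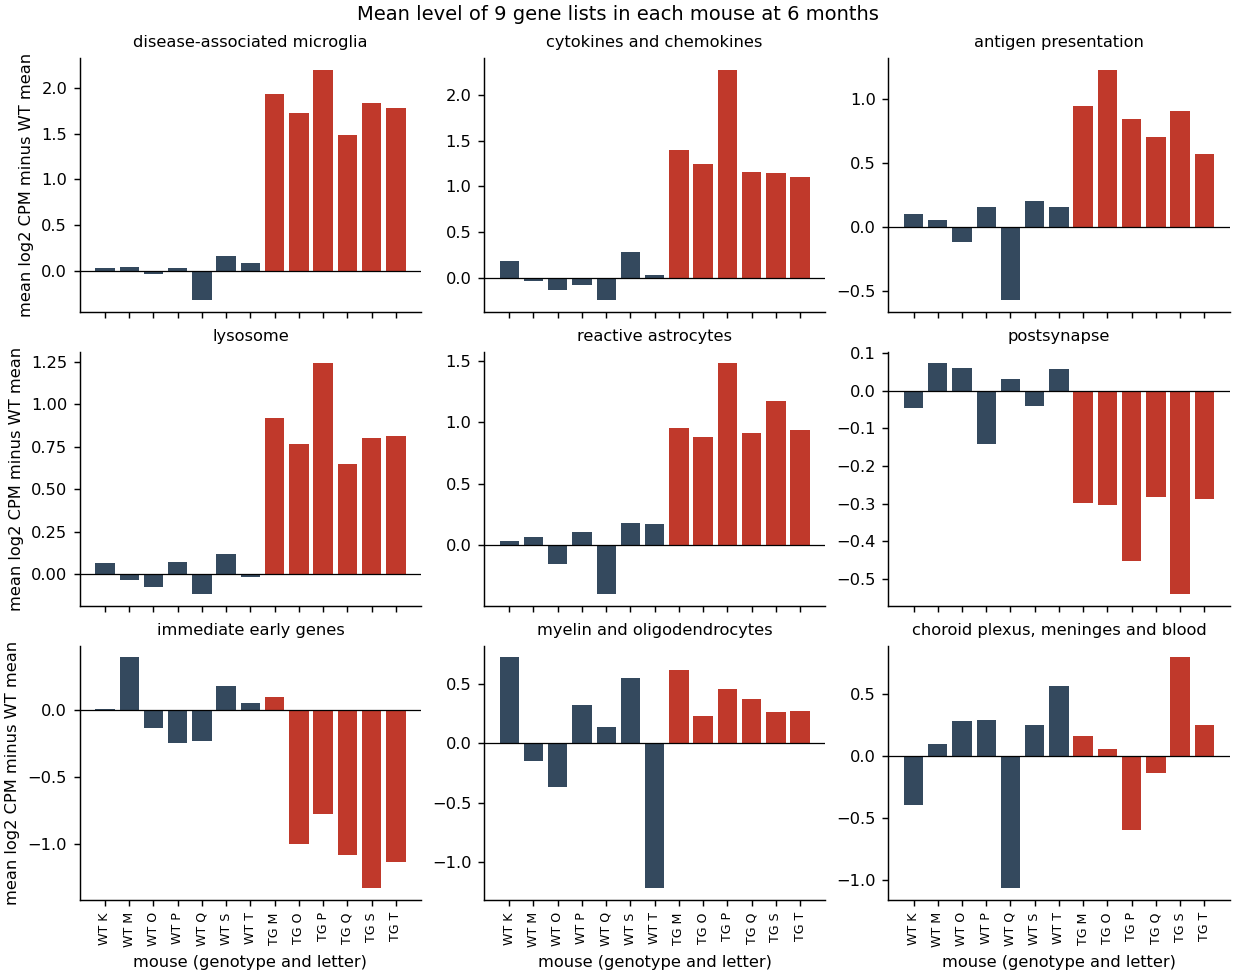
Mean log2 CPM of 9 gene lists in each mouse at 6 months, relative to the WT mean, with 1 bar per mouse and the y axis through 0. TG P reaches 2.27 in the cytokine list, TG M lies at 0.10 in the immediate early gene list, WT T at -1.22 in the myelin list, and WT Q at -1.07 in the choroid plexus, meninges and blood list.

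Antigen presentation genes were called higher at 14 of 19 members and lower at none (median 1.03), with a different mouse in front. Of all genes, 6.52% were called higher. H2-K1, a class I heavy chain, had 444 to 933 counts (median 636) in TG and 218 to 444 (median 254) in WT mice (log2 fold change = 1.16 ± 0.20 SE, FDR = 3.0e-05). Cd74, the class II invariant chain, had 279 to 1312 (median 487) in TG and 39.7 to 237 (median 157) in WT mice (log2 fold change = 2.08 ± 0.39 SE, FDR = 1.1e-04). H2-Aa, a class II chain, had 94.0 to 549 (median 165) in TG and 17.02 to 129 (median 76.7) in WT mice (log2 fold change = 1.62 ± 0.42 SE, FDR = 0.0063). H2-K1 and Cd74 separated the groups and H2-Aa did not. TG O was the highest mouse at Cd74 and H2-Aa, and without it the H2-Aa log2 fold change was 1.07 (FDR = 0.096) and 9 members were called. Without TG P, WT Q and WT T together 9 members were called too. The polymorphic H2 genes resemble each other, and reads from the mixed background can be assigned to the wrong copy, so their values are uncertain.

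Interferon-response genes were called higher at 10 of 24 members (median 0.67), and lower at none, where 6.52% of all genes were called higher. Irf8, a macrophage transcription factor of the interferon regulatory family, had 217 to 391.6 counts (median 248) in TG and 53.7 to 101 (median 65.8) in WT mice (log2 fold change = 1.88 ± 0.19 SE, FDR = 1.8e-11), without overlap. Ifit3, an antiviral protein, had 104 to 200.1 (median 155) in TG and 42.5 to 119.9 (median 86.5) in WT mice (log2 fold change = 0.89 ± 0.25 SE, FDR = 0.013), with overlap. Isg15 (0.19), Stat2 (0.07) and Irf9 (0.16) did not pass the test. Full separation of the groups was seen at 2 members, where every TG mouse was above every WT mouse at 3.37% of all genes. Without WT O, 6 members were called, and 4 without TG P, WT Q and WT T. The core of the interferon-stimulated response element, GAAANNGAA, was in 2812 of the 32851 promoter windows (8.56%). Ifit3, which has a near-identical neighboring copy, is shown for the first pair of its 3 closely spaced matches, in capitals, at chr19:34583366-34583390 and chr19:34583400-34583424 on the plus strand of GRCm38.p6, read in the direction of the gene with the motif on the opposite strand.
Ifit3, first match: tggtaagtTTCACTTTCctcttctg
Ifit3, second match: aagtctgtTTCAGTTTCtactttcc

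Lysosomal genes were called higher at 28 of 32 members and lower at none (median 0.80), where 6.52% of all genes were called higher. Every TG mouse was above every WT mouse at 25 members, where this held at 3.37% of all genes. Cd68, a lysosomal membrane protein of phagocytes, had 427 to 761 counts (median 551) in TG and 112 to 167 (median 141) in WT mice (log2 fold change = 2.05 ± 0.15 SE, FDR = 9.5e-16). Ctss, a protease of antigen-presenting cells, had 2749 to 5870.0 (median 3705) in TG and 799.9 to 1034 (median 867) in WT mice (log2 fold change = 2.17 ± 0.19 SE, FDR = 3.0e-13). Ctsd, an aspartic protease made by neurons and glia, had 11302 to 21023 (median 14109) in TG and 5135 to 6021 (median 5500.1) in WT mice (log2 fold change = 1.43 ± 0.13 SE, FDR = 8.3e-13). These genes were fully separated. Smaller rises came from lysosomal genes of most cell types, such as Psap (0.26) and Lipa (0.27). Npc1 (0.17), Gaa (0.02), Mcoln1 (-0.02) and Tfeb (0.23), the last a transcription factor of lysosomal genes, were the members not called. The call count was 25 without TG P, the lowest of the fits that left out 1 mouse. Genes of lipid efflux and storage were called higher at 8 of 16 members and lower at none (median 0.49). Plin4, a lipid droplet coat protein, had 219.8 to 516 (median 279) in TG and 39.3 to 82.3 (median 57.7) in WT mice (log2 fold change = 2.42 ± 0.28 SE, FDR = 2.0e-09). Abca1, which exports cholesterol to apolipoproteins, had 1064 to 1900.0 (median 1269.6) in TG and 649 to 873 (median 749) in WT mice (log2 fold change = 0.84 ± 0.13 SE, FDR = 3.9e-06). Both were without overlap, and Abcg1 (0.06), another exporter, was not called.

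Genes of reactive astrocytes were called higher at 16 of 25 members and lower at none (median 0.88). General astrocyte markers were called higher at 6 of 18 (median 0.30), and 6.52% of all genes were called higher. Gfap, the astrocyte intermediate filament, had 21791 to 43227 counts (median 30038) in TG and 2312 to 4321 (median 3573) in WT mice (log2 fold change = 3.19 ± 0.24 SE, FDR = 2.0e-15). Osmr, the oncostatin M receptor, had 207 to 395 (median 257) in TG and 57.5 to 79.6 (median 63.3) in WT mice (log2 fold change = 2.02 ± 0.21 SE, FDR = 6.8e-11). Aqp4, the water channel of astrocyte endfeet, had 2864 to 3629 (median 3390.4) in TG and 1552 to 2221 (median 2025) in WT mice (log2 fold change = 0.74 ± 0.13 SE, FDR = 3.4e-05). The groups did not overlap at Gfap, Osmr and Aqp4. The secreted protein gene Lcn2 had 2.96 to 86.3 (median 18.5) in TG and 0 to 1.89 (median 1.01) in WT mice (log2 fold change = 4.55 ± 1.13 SE, FDR = 0.0043), with TG P highest. Its call was lost without TG P, WT Q and WT T together, and under that setting 3 general markers were called. The glutamate transporters Slc1a2 (0.32) and Slc1a3 (0.25), glutamine synthetase (Glul, 0.17) and the astrocyte enzyme gene Aldh1l1 (0.31) were not called.

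On the neuronal side, genes of the postsynapse fell in part. Of 27 postsynaptic members, 10 were called lower and none higher (median -0.29), where 3.43% of all genes were called lower. Of 28 presynaptic members 3 were called lower (median -0.14). DESeq2 called 7 presynaptic and 12 postsynaptic members lower, where it called 811 of all 18943 genes lower. At an unadjusted p under 0.05 were 13 presynaptic and 17 postsynaptic members, and 4143 of all 18943 genes. On the mean log2 CPM scale the presynaptic list gave -0.33 to -0.13 in TG and -0.10 to 0.08 in WT mice, without overlap. A test of the difference between these lists was not made. Ddn, the dendritic protein dendrin, had 10895 to 14409 counts (median 12016) in TG and 16937 to 27882 (median 24712) in WT mice (log2 fold change = -0.91 ± 0.13 SE, FDR = 1.6e-07). Homer2, a postsynaptic scaffold, had 1123 to 1248 (median 1152) in TG and 1382 to 1839.6 (median 1718) in WT mice (log2 fold change = -0.50 ± 0.09 SE, FDR = 3.0e-05). Shank2, a master scaffold of the excitatory synapse, had 1599.8 to 2364 (median 2025) in TG and 2446 to 3295 (median 2725) in WT mice (log2 fold change = -0.50 ± 0.09 SE, FDR = 7.1e-05). At these genes no TG mouse reached the lowest WT mouse. Its relative Shank3 had 1953 to 2836 (median 2375) in TG and 2771 to 4389 (median 3457) in WT mice and overlapped narrowly (log2 fold change = -0.55 ± 0.14 SE, FDR = 0.0041). Camk2a, the kinase whose promoter drives the effector transgene, had 33470.4 to 42154 (median 38689) in TG and 47117 to 60497 (median 56436) in WT mice (log2 fold change = -0.54 ± 0.15 SE, FDR = 0.011), without overlap. Dlg4 (-0.19), Grin1 (-0.23), Gria1 (-0.14) and Gria2 (-0.19), the scaffold and receptor subunits of most excitatory synapses, did not pass the test. Rims1, which organizes the release site, was the presynaptic member that fell furthest, with 1642 to 2323 (median 2044) in TG and 2335 to 3299.8 (median 2794) in WT mice (log2 fold change = -0.53 ± 0.10 SE, FDR = 4.9e-05). The vesicle and fusion genes Syp (-0.11), Syn1 (-0.13) and Snap25 (-0.10) were not called. Without TG Q, 5 presynaptic members were called lower. The Camk2a call was lost without TG P, WT Q and WT T together.

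Markers of neuron types were called in both directions. Excitatory neuron markers were called higher at 1 and lower at 2 of 17 members (median -0.13), with Slc17a7, the vesicular glutamate transporter, at -0.14 (FDR = 0.46). Tbr1, a transcription factor of deep cortical layers, had 1134 to 1703 counts (median 1278) in TG and 623 to 1070.0 (median 975) in WT mice (log2 fold change = 0.55 ± 0.12 SE, FDR = 4.8e-04). The members called lower were Camk2a and Cux2 (-0.51), an upper-layer factor whose call was lost without TG M, TG P, WT K or WT S (FDR = 0.056 to 0.12). Of 6 entorhinal layer markers 1 was called higher and 2 lower (median -0.32), where 9.95% of all genes were called. Lef1, a transcription factor of the Wnt pathway, was the higher member (log2 fold change = 0.77 ± 0.14 SE, FDR = 3.0e-05), and the groups overlapped at it. Calb1, a calcium-binding protein, was called lower (log2 fold change = -0.54 ± 0.18 SE, FDR = 0.041), and its call was lost without TG M, TG P, TG Q, TG S, TG T, WT M, WT O, WT Q or WT T (FDR = 0.055 to 0.176). Wfs1, which marks a cell population of the superficial entorhinal layers, had 2570.3 to 3639 (median 3082) in TG and 2987 to 6354 (median 4925) in WT mice (log2 fold change = -0.63 ± 0.15 SE, FDR = 0.0029). Tbr1 separated the groups and Wfs1 did not. Of 16 inhibitory neuron markers 1 was called lower, 6330527O06Rik (-0.82), whose call was lost without TG P (FDR = 0.0515). Gad1 (-0.14), Pvalb (-0.01) and Sst (0.03) were not called. Voltage-gated channels were called lower at 5 of 28 members (median -0.22), where 3.43% of all genes were called lower, and at 2 without TG P. None of 14 GABA receptor members was called by edgeR or DESeq2 (median -0.12). At an unadjusted p under 0.05 were 2 of them, and 4143 of all 18943 genes. Neuropeptides and secreted factors were called higher at 1 and lower at 3 of 24 members (median -0.06), and at 1 lower without TG P, TG S or WT T. Trh, the thyrotropin-releasing hormone, had 3.14 to 23.1 (median 6.41) in TG mice and 4.51 to 667 (median 9.45) in WT mice, with its top value in WT T. Its log2 fold change of -3.62 ± 1.11 SE (FDR = 0.026) was -1.25 without WT T (FDR = 0.575), and the call was also lost without TG P (FDR = 0.058) or TG S (FDR = 0.062).

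Further genes were named for having the smallest p in their direction. Among those called lower, Unc13c, a priming factor for vesicle release, had 357 to 755 counts (median 637) in TG and 842 to 2004 (median 1214) in WT mice (log2 fold change = -1.18 ± 0.18 SE, FDR = 1.0e-06). Ngb, the neuronal oxygen-binding protein neuroglobin, had 42.3 to 81.2 (median 56.6) in TG and 104 to 262 (median 125) in WT mice (log2 fold change = -1.40 ± 0.23 SE, FDR = 9.1e-06). Neither gene had an overlap between the groups. Klhl34 (-0.57), Pknox2 (-0.57), Ppp1r12b (-0.48) and Lypd1 (-1.03) were lower in every TG mouse than in any WT mouse as well, while Spnb1 (-0.51) and Krt77 (-0.94) overlapped. Genes with the smallest p of those called higher included Lag3, an inhibitory receptor, with 450.3 to 796 (median 550.2) in TG and 52.7 to 96.2 (median 63.9) in WT mice (log2 fold change = 3.12 ± 0.24 SE, FDR = 3.0e-15). Ly9, a receptor of the SLAM family, had 53.2 to 109 (median 92.3) in TG and 1.11 to 5.90 (median 3.98) in WT mice (log2 fold change = 4.57 ± 0.39 SE, FDR = 7.3e-14). Mpeg1 (2.92), Plek (1.85), Cd52 (3.05), Ctsz (1.69) and Man2b1 (1.47) completed them with genes named in the lists.

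Immediate early genes had the lowest median of all lists with 20 or more members, -0.79, and 1 mouse apart. Of 20 members 6 were called lower and none higher, where 3.43% of all genes were called lower. At an unadjusted p under 0.05 were 13 of the 20, and 4143 of all 18943 genes. Npas4, an activity-regulated transcription factor of neurons, had 497 counts in TG M and 75.4 to 135 in the other TG mice, and 217 to 859.5 (median 578) in WT mice (log2 fold change = -1.96 ± 0.50 SE, FDR = 0.0055). Fosl2, a subunit of AP-1, had 411 to 699 (median 584) in TG and 808 to 1150.1 (median 865) in WT mice (log2 fold change = -0.74 ± 0.16 SE, FDR = 7.0e-04). The groups overlapped at Npas4 through TG M, and did not at Fosl2. Arc, a synaptic plasticity gene, had 4035 in TG M, 472 to 678 in the other TG mice and 1989 to 5105 (median 2558) in WT mice (log2 fold change = -1.48 ± 0.51 SE, FDR = 0.054). Fos, the classical activity marker, had 887 in TG M, 113 to 307 in the other TG mice and 441 to 1110.5 (median 666) in WT mice (log2 fold change = -1.26 ± 0.49 SE, FDR = 0.093). At Arc and Fos 5 of the 6 TG mice lay below every WT mouse, and TG M lay within the WT range. Without TG M the log2 fold changes were -2.46 for Arc (FDR = 5.6e-04) and -1.94 for Fos (FDR = 0.0076), and 13 of the 20 members were called lower. Arc was called without WT P too (FDR = 0.049), by DESeq2 (FDR = 0.0241), with filterByExpr (FDR = 0.0414), with RIN as a covariate (FDR = 0.0329) and with no robust estimation (FDR = 0.0365). DESeq2 called 8 members lower. Only 3 members were called without TG O, TG Q, TG S, TG T, WT M or WT T, or without TG P, WT Q and WT T together. TG M had the smallest library of the 13 mice, with 7565226 counts, and the part of this in its values was not tested. The list level was 0.10 in TG M, -1.33 to -0.78 in the other TG mice and -0.25 to 0.39 in WT mice. Btg2, an antiproliferative early response gene, had 199.9 to 554 (median 221) in TG and 243 to 799 (median 545) in WT mice (log2 fold change = -0.93 ± 0.32 SE, FDR = 0.048). Its call was lost without any 1 of TG O, TG P, TG Q, TG S, TG T, WT K, WT M, WT S and WT T (FDR = 0.0619 to 0.125). It is shown because its promoter window holds the full palindrome of the cAMP response element, TGACGTCA, which 588 of the 32851 windows (1.79%) hold, at chr1:134079306-134079329 of GRCm38.p6, minus strand, read in the direction of the gene.
Btg2: cccaataaTGACGTCAgtgagcga

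Several pathways that tau pathology is often linked to were described next. Over all 18943 genes, 6.52% were called higher, 3.43% lower, and 4143 had an unadjusted p under 0.05. None of 29 oxidative phosphorylation members was called by edgeR or DESeq2 or had an unadjusted p under 0.05 (0 members), and their median was 0.01. Unfolded protein response genes were called higher at 4 and lower at 3 of 26 members (median -0.02). Atf3, a stress-induced transcription factor, had 27.6 to 63.7 counts (median 45.7) in TG and 2.25 to 19.7 (median 8.85) in WT mice (log2 fold change = 2.28 ± 0.31 SE, FDR = 6.0e-08). Edem1, which sorts misfolded glycoproteins for degradation, had 322 to 439 (median 369) in TG and 215 to 327 (median 284) in WT mice (log2 fold change = 0.44 ± 0.09 SE, FDR = 3.5e-04). Atf3 was fully separated and Edem1 overlapped narrowly. The members called lower were the chaperone genes Calr (-0.22) and Hyou1 (-0.22) and the foldase gene Creld2 (-0.33). Their count was 1 without TG O, TG P, TG T, WT O, WT P or WT Q, 0 without TG S or WT T, and 5 without WT K, and 2 members were called higher without TG P. Of 15 cytosolic heat shock members 3 were called higher and 1, Dnajb1 (-0.33), lower (median 0.06). Hspb8, a small heat shock protein, had 199 to 326 (median 260.1) in TG and 67.1 to 183 (median 144) in WT mice (log2 fold change = 0.88 ± 0.18 SE, FDR = 4.3e-04), without overlap. It was the member still called higher without TG P, and the lower call was lost without TG O, TG S or WT T. Cholesterol synthesis genes were called lower at 3 of 21 members (median -0.06), at 1 without TG Q or WT P, and at 0 without TG S. Tau kinases, phosphatases and partners were called lower at 4 of 24 members (median -0.06), namely Mark1 (-0.26), Mark2 (-0.24), Mtap1a (-0.27) and Mtap2 (-0.26). The count was 2 without TG M or WT Q, and 1 without TG P or TG S. Gsk3b (0.01) and Cdk5 (-0.10), the kinases most often tied to tau, were not called. Without TG P, WT Q and WT T together no member of the cholesterol or tau kinase lists was called. Mouse counterparts of Alzheimer risk genes were called higher at 11 of 33 members and lower at none (median 0.09). The 11 were Apoe, Trem2, Clu, Picalm, Ms4a6d, Cd33, Inpp5d, Sfpi1, Plcg2, Abi3 and Grn, most of them genes of microglia. App (-0.02), Bin1 (0.02) and Sorl1 (0.01) were not called.

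Markers of other cells and tissues were followed in the same mice. Myelin and oligodendrocyte genes were called higher at 1 of 19 members (median 0.23) and spread widely among WT mice, with list levels of 0.72 in WT K and -1.22 in WT T. Mbp, a myelin protein, had 15296 to 23519 counts (median 17387) in TG and 5619 to 25702 (median 15876) in WT mice (log2 fold change = 0.24 ± 0.22 SE, FDR = 0.57). Trf, transferrin, was the called member, with 2859 to 3781 (median 2923) in TG and 713 to 3009 (median 1991) in WT mice (log2 fold change = 0.73 ± 0.20 SE, FDR = 0.0094). Both overlapped, the Trf call was lost without TG P, WT Q and WT T, and 3 members were called without WT K. Oligodendrocyte precursor markers were called higher at 1 of 12 members, Tns3 (0.34), which was lost without TG P (FDR = 0.073), and 2 were called without WT K. None of 16 endothelial and pericyte markers, and none of the 12 tested markers of choroid plexus, meninges and blood, was called by edgeR (medians 0.05 and 0.07), with 1 and 0 at an unadjusted p under 0.05 and 1 and 0 called by DESeq2. Their summed normalized counts were 7597.73 to 9435.93 in TG and 6523.97 to 9800.9 in WT mice for the first list, and 3099 to 8219 in TG and 1778 to 6228 in WT mice for the second. WT Q had the lowest level of the second list (-1.07), and 4 hemoglobin genes were listed at 0 in all 13 mice. Of 16 leukocyte markers 1 was called higher, Cd8a, whose WT mice held 1 count in all. Its call was lost without TG M, TG S or any 1 WT mouse other than WT M (FDR = 0.0628 to 0.227) and with RIN as a covariate (FDR = 0.0743), DESeq2 called 0 members, and 2 were called without TG P. The leukocyte list had a median of 0.83 with 7 of 16 members at an unadjusted p under 0.05. The T cell gene Cd3e had 0 to 3.19 counts in TG and 0 to 1.13 in WT mice. Markers of neighboring regions (0 of 12 called by edgeR or DESeq2, 1 at an unadjusted p under 0.05, median -0.18) had summed counts of 1116 to 1605 in TG and 1161 to 2018 in WT mice. Extracellular matrix genes were called higher at 1 of 20 members, the macrophage elastase gene Mmp12 (3.70), with 7 at an unadjusted p under 0.05 and 3 called higher by DESeq2. Cell cycle genes were called higher at 1 of 20, the replication licensing gene Mcm3 (0.76). Each of these lists had 0 or 1 member called by edgeR, where 6.52% of all genes were called higher. Over all 18943 genes, 4143 had an unadjusted p under 0.05. The leukocyte (7 of 16) and extracellular matrix (7 of 20) shares were larger than that, and those of the other lists here were smaller.

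The 6-month comparison was then set beside those of the other ages of the line, which used other mice. At 2, 4 and 8 months, 0.512%, 5.15% and 28.3% of genes were called. Of the 1884 genes called at 6 months, 674 were also called at 4 months (35.8% of the 6-month and 69.1% of the 4-month calls), all in the same direction. At 8 months 1567 were also called (83.2% of the 6-month and 29.3% of the 8-month calls), and 1565 of them had the same direction. Of the higher genes 540 of 1235 (43.7%) were also called higher at 4 months, and of the lower genes 134 of 649 (20.6%) were also called lower, a difference that was not tested. At 6 months and no other age, 300 genes were called, 171 higher and 129 lower. At all 4 ages 33 genes were called, 6 higher and 27 lower, 5 of the latter at the insertion sites.

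The difference between the genotype effects at 6 and 2 months was called at 508 genes (2.68%), 461 with a larger and 47 with a smaller value at 6 months. Cd68 had the smallest p, with a difference of 1.87 ± 0.21 SE on the log2 scale (FDR = 5.2e-08), followed among larger values by Clec5a (2.09 ± 0.26), Cxcl16 (2.52 ± 0.31), Gfap (2.49 ± 0.30) and C3ar1 (2.79 ± 0.36). Smaller values led with Prnp (-0.49 ± 0.09, FDR = 2.7e-04) and included Mapt (-0.32 ± 0.07, FDR = 0.0032). Mapt had log2 fold changes of 0.49, 0.34, 0.17 and 0.06 at 2, 4, 6 and 8 months, and Prnp of 1.53, 1.36, 1.04 and 0.84. Kcnk10, a potassium channel gene, changed from 0.39 at 2 months to -0.52 at 6 months (difference -0.90 ± 0.18, FDR = 6.2e-04). In 26 of 32 lysosomal and 20 of 26 disease-associated microglial genes the effect differed between 2 and 6 months, and in no immediate early gene. Between 6 and 4 months edgeR called the difference at 0 genes (0%), with 1300 at an unadjusted p under 0.05, while DESeq2 called 2 and edgeR without WT K 2. Between 8 and 6 months it was called at 2 genes (0.0106%) by edgeR and at 47 by DESeq2, which shared 1 of the 2. They were Hrh3, a histamine receptor (-0.91 ± 0.17, FDR = 0.014), and Doc2a, a calcium sensor for neurotransmitter release (-0.62 ± 0.12, FDR = 0.014). Hrh3 was at -0.26 (FDR = 0.19) and Doc2a at 0.06 (FDR = 0.74) at 6 months, and neither difference from 8 months was called without TG P or TG T, while 10 genes were called without TG Q and 4 without WT Q.

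Lists differed in their values across the ages, while calls over all genes rose too. Of all 18943 genes, 69, 270, 649 and 2554 were called lower at 2, 4, 6 and 8 months. Called higher were 28, 706, 1235 and 2802. Presynaptic members were called lower at 0, 1, 3 and 22 of 28 at 2, 4, 6 and 8 months, postsynaptic members at 2, 4, 10 and 20 of 27, and cholesterol synthesis members at 0, 2, 3 and 15 of 21. Lysosomal members were called higher at 0, 23, 28 and 28 of 32, and homeostatic microglial members at 0, 7, 11 and 8 of 15, with 1 called lower at 8 months. Plin4, called at 6 months, had a log2 fold change of 0.46 at 4 months (FDR = 0.40) and 2.69 at 8 months (FDR = 1.5e-11). Tmem119 had 0.08 at 4 months (FDR = 0.85), 0.67 at 6 months and 0.30 at 8 months (FDR = 0.098). Immediate early gene levels varied widely at each age, from -0.38 to 0.67 in TG mice at 4 months and from -1.12 to 0.14 at 8 months, and 1, 0, 6 and 3 members were called lower from 2 to 8 months. Differences between the call counts of lists at different ages were not tested.

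**Figure D4:**
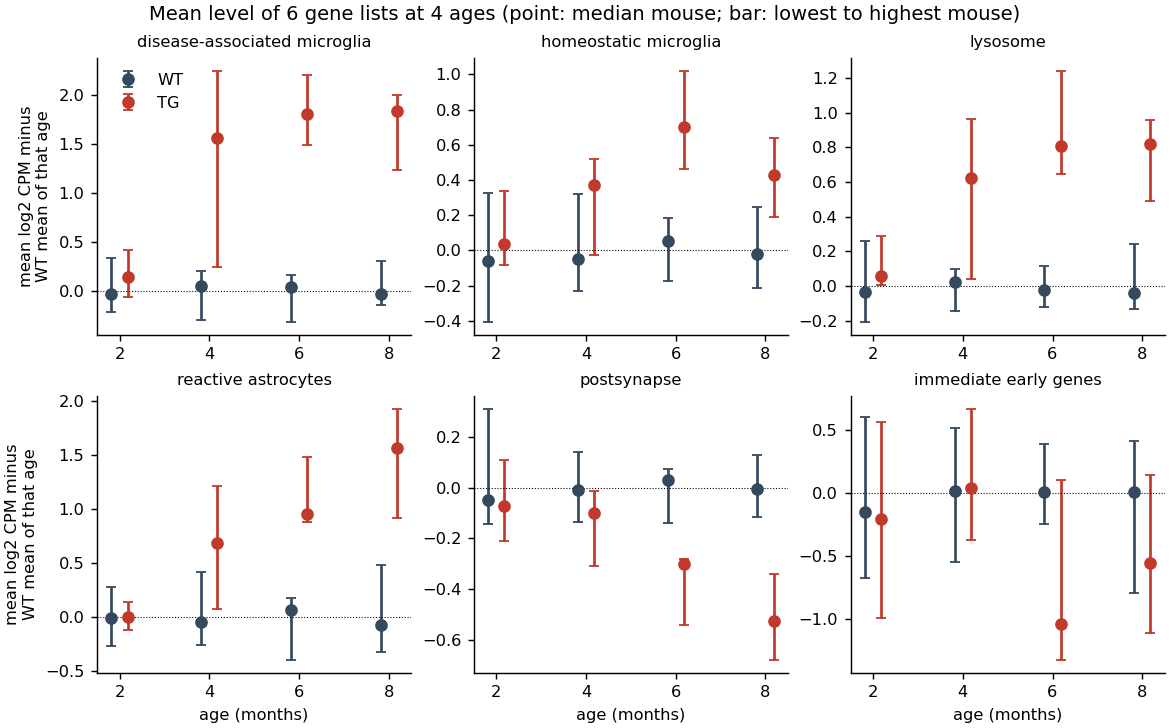
Mean log2 CPM of 6 gene lists relative to the WT mean of the same age, at 2, 4, 6 and 8 months, with points at the median mouse and bars from the lowest to the highest mouse. At 6 months TG and WT bars are apart for the microglial, lysosomal, reactive astrocyte and postsynapse lists and overlap for immediate early genes, where TG runs from -1.33 to 0.10.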

How the data were processed

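Female rTg4510 TG and WT mice were perfused, and messenger RNA of the left entorhinal cortex was sequenced in pairs of reads (TruSeq Stranded mRNA). Reads were aligned with STAR to mm10 (GRCm38.p4), and the authors deposited raw counts per gene from featureCounts. The strand setting of the counting is not given in the sources used here, so reads of overlapping antisense genes cannot be separated. Authors' notes also name DESeq2 1.16.1 and R 3.4.3.

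Counts were tested with edgeR 4.0.16 (TMM, robust quasi-likelihood, R 4.3.3) over 18943 of 23337 genes with at least 6 counts over the 59 mice of the line, with a term for each genotype and age, so all ages share 1 estimate of the spread. Benjamini-Hochberg adjustment ran over all genes tested, and FDR under 0.05 was called. Standard errors came from the F statistic. Normalized counts used DESeq2 1.42.0 size factors, and log2 CPM a prior count of 2. Each mouse was 1 replicate. Genes named were the 15 with the smallest p per direction, up to 4 members per list and direction, and 5 per direction between ages, beside members chosen after their values were seen. The members and 36 lists (696 genes) were chosen with earlier results of these data known. Alternatives were DESeq2, other filters, scalings, thresholds and covariates, and leaving out mice. Scripts were tested on simulated data. Total counts of 7565226 to 13771578 limit what can be seen at genes of few counts.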

Additional observations from a re-analysis of the deposited data

Results flagged for a closer look

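In 31 of 213 sets of mice examined (14.6%), the highest or lowest mouse lay far from the others of its group. The rule is set to flag about 1 in 20 by chance for independent, normally distributed values. The sets share the same mice and include genes chosen after their values were seen, so the 14.6% cannot be compared with that rate. TG P was the far mouse 16 times, TG M 4, TG O 3, WT Q 3, WT O 2, and WT K, WT S and WT T 1 each.

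In TG P the normalized counts were, with the nearest TG mouse in parentheses, 2739.8 for Cx3cr1 (1988), 983 for Tmem119 (656), 268 for Tlr2 (112), 350.4 for Cd14 (169) and 391.6 for Irf8 (263). Complement genes followed, with 5843 for C4b (3443), 115 for C3 (51.4) and 238 for C3ar1 (153). Cytokine genes were furthest out, with 142 for Ccl2 (4.78), 131 for Cxcl10 (14.3), 94.0 for Ccl3 (58.1) and 65.7 for Il1b (20.7). Abca1 had 1900.0 (1308) and Lcn2 86.3 (20.7). On the mean log2 CPM scale TG P had 2.27 for cytokines (1.40) and 0.28 for oxidative phosphorylation (0.03).

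TG M had 497 for Npas4 (135), 4035 for Arc (678), 887 for Fos (307) and 554 for Btg2 (276), each within the range of the WT mice. TG O had 1312 for Cd74 (604), 549 for H2-Aa (207) and 23.1 for Trh (8.705). Among WT mice, Clec7a was 6.96 in WT O (3.32), Ccl3 13.3 in WT S (3.93), Apoe 16241 in WT Q (23826) and Trh 667 in WT T (63.7). List levels stood apart in WT Q for disease-associated microglia (-0.32) and antigen presentation (-0.57), in WT O for inhibitory neurons (0.16) and in WT K for the unfolded protein response (-0.17). The part of these mice in the group differences was measured only by leaving them out.

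The genotype effect differed between 6 and 2 months at 508 genes by the edgeR test of the difference. Among those named, the log2 difference (6 minus 2 months) was 2.79 for C3ar1, 2.52 for Cxcl16, 2.49 for Gfap, 2.09 for Clec5a, 1.87 for Cd68, -0.32 for Mapt, -0.47 for Spnb1, -0.49 for Prnp, -0.70 for Cntn3 and -0.90 for Kcnk10. Between 8 and 6 months it differed at 2 genes, Hrh3 (-0.91) and Doc2a (-0.62).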

How the results depend on the processing

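Of the 148 genes followed by name, none changed direction under the alternatives in which they were followed. They were not followed in the 13 mice alone with a replicate block, and filterByExpr kept 146 of them. DESeq2 called 2138 genes, DESeq2 size factors 1884, no filter 1830, filterByExpr 2021, no robust estimation 1901, RIN as a covariate 1674 and the 13 mice alone 1733. An FDR under 0.01 left 1022 genes at 6 months, 262 for the difference between 6 and 2 months, and 0 for that between 8 and 6 months. Without TG P, WT Q and WT T, chosen after seeing the data, the counts were 947 at 6 months, 254 between 6 and 2 months and 1 between 6 and 4 months. Between 6 and 4 months DESeq2 called 2 and no robust estimation 1, and between 8 and 6 months DESeq2 called 47. Leaving out 1 mouse gave 1347 to 1941 genes at 6 months, 348 to 610 between 6 and 2 months, 0 to 2 between 6 and 4 months, and 0 to 10 between 8 and 6 months. Named genes that lost their call numbered 6 to 25 in those fits (25 without TG P), 42 without the 3 mice, 14 with RIN, 16 in the 13 mice alone and 34 at FDR under 0.01. The cause of these changes was not tested.

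Mice of the groups share letters in their labels, and what a letter stands for is not given. Deviations of same-letter mice correlated at -0.14 to 0.43 over 5000 genes (mean 0.203, other letters -0.0357), 5 of 6 pairs were over 0.1 where pairing was taken to need all, and 2 of 6 TG mice correlated best with their own letter, so whether the letters pair mice was not settled. With the letter as a replicate block, 2259 genes were called at 6 months, 3 between 6 and 4 months and 0 between 8 and 6 months, where Hrh3 and Doc2a lost their call, and 12 immediate early genes were called lower, Arc (FDR = 0.00826) and Fos (FDR = 0.0227) among them. The block in the 13 mice alone gave 2086. Depth limits the cytokine, leukocyte and other genes with few counts.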

Other observations

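Among the 300 genes called at 6 months and at no other age were Alg14, of the pathway that builds glycans (log2 fold change = 0.58 ± 0.10 SE, edgeR FDR = 2.2e-05), and Sfrp5, a secreted Wnt inhibitor (2.25 ± 0.40 SE, FDR = 3.3e-05). Homeostatic microglial genes in that set were P2ry13 (0.57 ± 0.14 SE, FDR = 0.0037), Fcrls (0.90 ± 0.19 SE, FDR = 4.0e-04) and Tmem119 (0.67 ± 0.15 SE, FDR = 0.001), and the complement receptor gene Itgam (0.61 ± 0.15 SE, FDR = 0.0032) was in it too. A call at 1 age alone does not show that the effect differed between ages. The 6 genes called higher at all 4 ages were Slc29a3, Car4, Blnk, Tbr1, Prnp and Lef1.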
